A study of Rattus norvegicus with 108 samples.

Results

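The potassium channel genes of rat dentate gyrus were taken as the rows whose gene symbol starts with Kcn. There were 86 such rows of 19127 in each of the count tables, which hold the dorsal (dorDG) and the ventral (venDG) part of that structure, and all 86 had at least 1 unique molecular identifier (UMI, a tag for 1 captured RNA molecule) in each region. By symbol, 35 encode voltage-gated pore (alpha) subunits, 11 auxiliary subunits, 13 calcium- or sodium-activated channels, 13 inward rectifiers and 14 two-pore channels. A mean of at least 0.2 UMIs per 10000 over replicates was required for a test, which 33 members met in dorDG and 33 in venDG. Kcna1 (0.192) lay just outside this limit in dorDG, and Kcnj6 (0.215) just inside and Kcnk2 (0.194) just outside it in venDG.

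Animals were male Long-Evans rats from Charles River, aged 2 months when treatment began, with no engineered allele named. For 6 weeks they took fluoxetine, a serotonin reuptake inhibitor, at 18 mg/kg (FT) or plain water (Sham). Tissue punches were profiled by droplet 3′ RNA sequencing. A replicate, pooled from 3 animals by the study's account, was the unit of every test between treatments or regions. There were 4 dorDG FT replicates (numbers 1, 2, 4 and 5) and 5 in each of the other 3 groups. The p-values of those tests therefore measure the spread between these pools. Where reactions of the same replicate were compared, the unit was the reaction. Those p-values measure the spread of the difference within replicates. Cells numbered 1289 in dorDG and 2058 in venDG, with a median of 3949 and 3350 UMIs per cell, and UMIs per replicate ranged from 220162 to 1523537. Replicates 1 and 2 of each group were made from 2 droplet reactions, and the others from 1. The study prepared both whole cells and nuclei, and no source says which reaction held which. Of 3338 cell barcodes, 9 occurred in more than 1 reaction (18 cells).

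Potassium channels let potassium leave or enter a cell along its gradient, and so set the resting potential, the shape of the action potential and the rate of firing. Voltage-gated subunits open on depolarization, calcium- and sodium-activated subunits follow internal ions, inward rectifiers hold the resting potential or answer G proteins and ATP, and two-pore subunits carry leak current. In the dentate gyrus, A-type and M-type potassium currents are known as brakes on granule cell firing, while glia use other members to buffer potassium.

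Over both regions, 60.4% of all UMIs of the 86 members came from voltage-gated alpha subunits. Auxiliary subunits gave 14.7%, calcium- and sodium-activated subunits 12.6%, inward rectifiers 7.53% and two-pore subunits 4.75%. A single gene, Kcnd2, which forms the pore of A-type channels, gave 20.7%. It was followed by Kcnq3 (7.64%), a subunit of the M current, and Kcnma1 (6.60%), the pore of the large-conductance calcium-activated channel. Next came Kcnab1 (5.18%), a cytoplasmic beta subunit, Kcnh7 (5.00%), a pore subunit of the erg family, and Kcng1 (4.33%), a subunit that conducts only when joined to other pore subunits. Each UMI marks 1 molecule's 3′ end, so levels were not divided by transcript length, and capture of different genes may differ. Kcna2, a subunit of delayed rectifiers that the study names, had 1 UMI in dorDG and 10 in venDG. Also named there, Kcnj10, the main glial inward rectifier, averaged 0.159 and 0.127 UMIs per 10000, and Kcnk9, an acid-sensitive leak channel, averaged 0.154 and 0.137. None of these 3 genes passed the limit for a test between treatments or regions.

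To describe the channel repertoire of each dorDG cell type, levels were computed per replicate for the 12 types of the authors' annotation. Because those types were made by clustering on these same genes, their levels are a description with no test. The summed level of all members was 101 ± 22.6 UMIs per 10000 (SD, n = 4 replicates of at least 5 cells) in ExcitNeuron, 95.1 ± 22.5 (n = 6) in InhibNeuron and 58.1 ± 26.8 (n = 9) in Granule. It was 36.7 ± 11.2 (n = 7) in OPC, the oligodendrocyte precursors, and 29.1 ± 8.16 (n = 8) in AstroSub1. Oligodend1 had 23.2 ± 7.29 (n = 9), BergGlia 18.9 ± 21.0 (n = 4), Oligodend2 18.5 ± 9.09 (n = 7) and Mossy 18.0 ± 3.74 (n = 7). Lowest were Endothelial at 16.4 ± 5.27, Microglia2 at 16.2 ± 7.47 and Microglia1 at 14.4 ± 5.16 (n = 9 each). In this order the replicate ranges of every pair of neighbours overlapped, and even Granule (17.8 to 106) overlapped Microglia1 (8.04 to 23.2). ExcitNeuron (80.8 to 123) and InhibNeuron (60.8 to 122) lay above every replicate of both microglial types.

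This order moved with the kind of cell. Low-ribosomal cells, those under 2% of UMIs from 80 cytosolic ribosomal protein genes, made up 81.0 to 85.5% of the neuron-labelled types, 26.2% of Microglia2 and 9.35% of Microglia1. Among low-ribosomal cells alone, pooled over replicates, the summed level was 116 in InhibNeuron, 105 in ExcitNeuron, 68.5 in Granule, 66.1 in Oligodend2, 65.8 in OPC and 50.9 in Microglia1. Among the other cells it was 58.0, 36.5, 24.9, 13.8, 29.3 and 11.9 in the same types.

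Several of these names went against the markers listed for them. In Mossy cells, 6 of 6 mural (vessel wall) markers summed to 26.9 UMIs per 10000 against at most 2.85 in any other type, and the endothelial markers to 19.3 against 24.5 in Endothelial. A UMI of the mossy cell markers Calb2 or Drd2 was seen in 0 of 72 cells, which allows a share of up to 4.17% of cells with a UMI and sets no limit on cells that express them. The 4 listed mossy cell markers that were found summed to 3.12 UMIs per 10000 in Mossy, all from 1 gene. In the other types they summed to between 2.21 (BergGlia) and 13.0 (InhibNeuron). In InhibNeuron cells the 6 inhibitory markers summed to 0.621 UMIs per 10000, with Gad1 at 0.296, Gad2 at 0.217 and Slc32a1 at 0, whereas the glutamate transporter gene Slc17a7 stood at 3.21. Prox1, the granule neuron factor, was at 1.88 in the same cells. The granule markers summed to 1.75 in Granule, below InhibNeuron at 4.08, Microglia1 at 2.62, Microglia2 at 2.40 and ExcitNeuron at 2.12. The authors' names, "neuron-labelled" included, are kept below as names only. UMIs of Mbp, a myelin gene, were present in every type, and ran from 31.7 to 77.9 UMIs per 10000 in the types that are not oligodendrocytes, against 141 in Oligodend1 and 134 in Oligodend2.

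**Figure D1:**
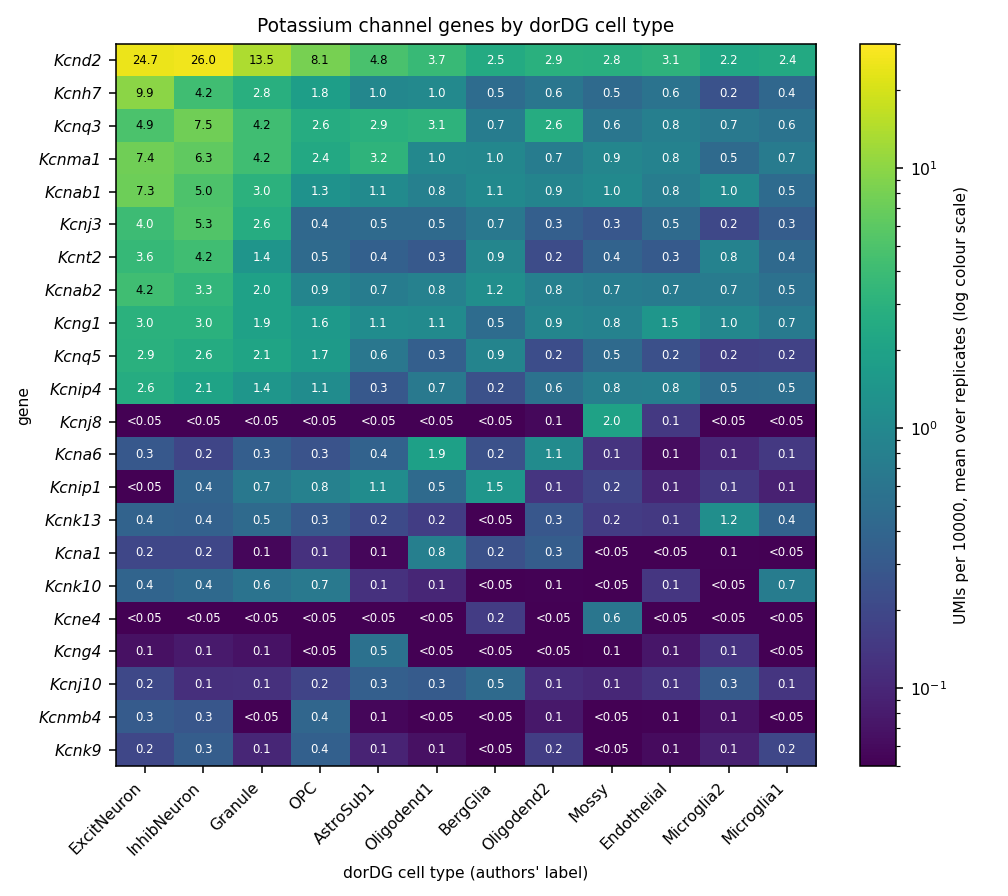
Mean UMIs per 10000 over replicates of 22 potassium channel genes (rows) in the 12 dorDG cell types of the authors' annotation (columns, ordered by summed level), on a log colour scale with the value printed in each cell. Kcnd2 is the highest of the genes in every column, from 2.25 in Microglia2 to 26.0 in InhibNeuron, and Kcnj8 exceeds 1 in Mossy alone.

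Kcnd2 had the highest mean of the members in all 12 types. Its level was 26.0 ± 8.28 UMIs per 10000 in InhibNeuron (n = 6), 24.7 ± 7.45 in ExcitNeuron (n = 4) and 13.5 ± 8.42 in Granule (n = 9). In OPC it was 8.09 ± 3.34 (n = 7), and in the remaining 8 types it lay between 2.25 and 4.78. With only cells of at least 2% ribosomal protein UMIs, Kcnd2 led in 10 types, and Kcnq3 led in Oligodend1 and Oligodend2.

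The genes after Kcnd2 differed by type. ExcitNeuron cells had Kcnh7 (9.90 ± 6.17 UMIs per 10000, n = 4) and Kcnma1 (7.41 ± 3.17) after Kcnd2. In InhibNeuron cells Kcnq3 (7.53 ± 2.07, n = 6) and Kcnma1 (6.29 ± 2.89) followed, as they did in Granule cells at 4.25 ± 2.84 and 4.17 ± 2.13 (n = 9) and in OPC at 2.61 ± 1.21 and 2.37 ± 1.37 (n = 7). The same pair, reversed, followed in AstroSub1 at 3.22 ± 2.10 for Kcnma1 and 2.88 ± 1.25 for Kcnq3 (n = 8). InhibNeuron, Granule, OPC and AstroSub1 thus had the same leading genes, and ExcitNeuron did not.

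Oligodendrocytes had another gene near the top. Kcna6, a voltage-gated subunit of the shaker-related group, reached 1.92 ± 0.45 UMIs per 10000 in Oligodend1 (n = 9) and 1.08 ± 0.42 in Oligodend2 (n = 7), behind Kcnq3 at 3.14 ± 1.24 and 2.62 ± 1.54. It had UMIs in 9 of 9 and 7 of 7 replicates there, and its mean in every other type was at most 0.375. The related Kcna1 was also highest in Oligodend1, at 0.795 ± 0.391, and its 51 UMIs there all came from cells of at least 2% ribosomal UMIs.

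Vascular and immune types had their own runners-up. Endothelial cells had Kcng1 (1.45 ± 0.54 UMIs per 10000) and Kcnma1 (0.846 ± 0.472, n = 9) after Kcnd2. In Microglia2, Kcnk13, a two-pore channel of microglia, stood at 1.17 ± 1.20 (n = 9), followed by Kcnab1 at 1.03 ± 0.70. The 30 UMIs of Kcnk13 came from 7 of 9 replicates, and 21.4% of Microglia2 cells had one against 5.26% of Oligodend1 cells, at medians of 1925 and 2499 UMIs per cell. Over all cells of a type, Kcnk13 stood at 0.934 in Microglia2 and at 0.487 in Granule, the next type. Microglia1, the other microglial type, was thus no higher than Granule. All 12 types had UMIs of it. In Microglia1, Kcnk10, a mechanically gated leak channel, was second at 0.742 ± 1.29 and Kcnma1 came after it at 0.712 ± 0.424 (n = 9). However, 40 of the 46 Kcnk10 UMIs in Microglia1 came from FT replicate 2 (13) and Sham replicate 2 (27), so its place rests on those libraries. In BergGlia, Kcnip1, a calcium-binding partner of A-type channels, and Kcnab2, a beta subunit, followed Kcnd2 at 1.45 ± 2.90 and 1.18 ± 1.44 (n = 4), on 7 and 4 UMIs.

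Of the genes that the study names, Kcnj10 had a mean of 0.347 ± 0.299 UMIs per 10000 in AstroSub1 (n = 8) and at most 0.459 in any type, the latter on 1 UMI in BergGlia. Kcnk9 had 0.326 ± 0.140 in InhibNeuron (n = 6) and 0.353 ± 0.380 in OPC (n = 7). Kcng4, another silent modifier of pore subunits, had 17 of its 48 dorDG UMIs in AstroSub1 cells, at 0.538 ± 0.397.

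In the Mossy type an inward rectifier came second. Kcnj8 encodes the pore of the vascular ATP-sensitive potassium channel, and Abcc9, no member itself, encodes the sulphonylurea receptor that surrounds that pore. Of 110 dorDG UMIs of Kcnj8, 90 were in the 72 Mossy cells. By replicate, Kcnj8 stood at 1.10, 1.95, 2.06 and 1.96 UMIs per 10000 in FT (replicates 1, 2, 4 and 5) and at 1.73, 1.14 and 3.96 in Sham (1, 2 and 4, the Sham replicates with at least 5 Mossy cells). The groups overlapped, and every one of these replicates was above 1. The mean was 1.99 ± 0.95 (n = 7), and over all cells of a type the level in Mossy was 12.9 times that in the next type, Endothelial (1.91 against 0.148). A UMI of Kcnj8 was seen in 54.2% of Mossy cells at a median of 4722.5 UMIs per cell, and in none of 107 Microglia1 cells at a median of 6669.

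Abcc9 had 81 UMIs in Mossy cells (1.72 UMIs per 10000) and at most 0.148 in any other type. Of the 72 cells, 39 had Kcnj8, 35 had Abcc9 and 26 had both. Kcne4, a small auxiliary subunit, had 29 of its 40 dorDG UMIs in the same type, at 0.613 ± 0.266 (n = 7), and 18 of the 72 cells had it. All 39 cells with Kcnj8 also had a UMI of the mural markers Pdgfrb, Rgs5 or Vtn, as did 62 of the 72 in all. The endothelial gene Flt1 was seen in 52 of the 72 cells, 45 of which also had one of those mural markers, and no doublet caller was run. These genes were not tested against the other types, and whether doublets contribute to the cells was not tested.

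**Figure D2:**
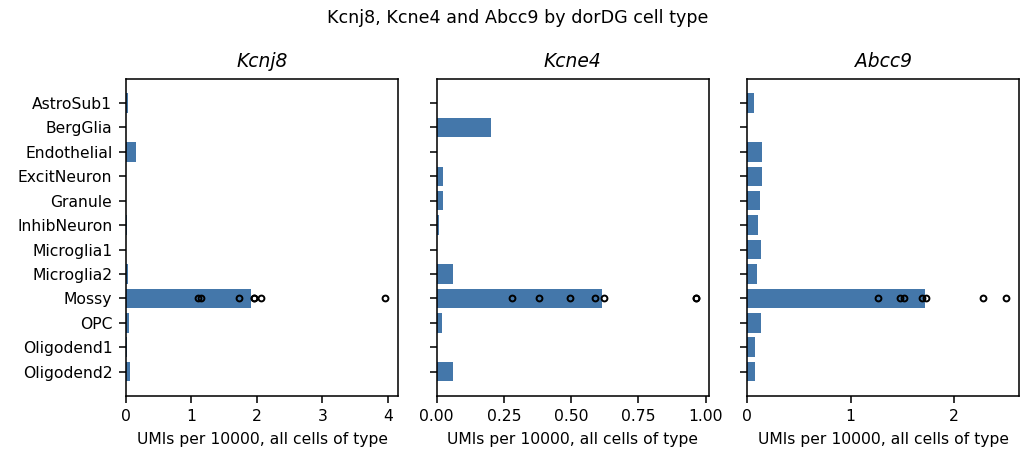
Bars give UMIs per 10000 over all cells of each dorDG type for Kcnj8, Kcne4 and Abcc9, and open circles give the 7 replicates with at least 5 Mossy cells. For Kcnj8 and Abcc9 every Mossy replicate lies above the bar of each other type.

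The promoters of Kcnd2, the member with the highest mean in all 12 types, and of Kcnj8 and Abcc9, the pair that met in Mossy cells, are shown to let their start regions be compared. They are RefSeq windows of the rat assembly GRCr8 from 250 bases before to 50 after the annotated start, 5′ to 3′ on the gene's strand, with each CG dinucleotide in capitals. GRCr8 is not the build used for counting (rn5), and the coordinates hold for GRCr8 alone.
Kcnd2: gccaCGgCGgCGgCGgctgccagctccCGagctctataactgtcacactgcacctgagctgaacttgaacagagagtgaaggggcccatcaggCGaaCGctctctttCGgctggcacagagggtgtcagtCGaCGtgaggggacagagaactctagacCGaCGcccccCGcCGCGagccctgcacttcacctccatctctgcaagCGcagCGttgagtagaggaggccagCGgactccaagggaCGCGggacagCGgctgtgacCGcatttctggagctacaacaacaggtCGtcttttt
Kcnj8: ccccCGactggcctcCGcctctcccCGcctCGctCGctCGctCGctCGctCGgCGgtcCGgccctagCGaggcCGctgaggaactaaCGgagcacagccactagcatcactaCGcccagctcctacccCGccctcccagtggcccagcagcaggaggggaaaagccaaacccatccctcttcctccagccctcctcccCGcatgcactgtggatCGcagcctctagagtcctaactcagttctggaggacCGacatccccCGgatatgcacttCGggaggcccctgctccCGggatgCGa
Abcc9: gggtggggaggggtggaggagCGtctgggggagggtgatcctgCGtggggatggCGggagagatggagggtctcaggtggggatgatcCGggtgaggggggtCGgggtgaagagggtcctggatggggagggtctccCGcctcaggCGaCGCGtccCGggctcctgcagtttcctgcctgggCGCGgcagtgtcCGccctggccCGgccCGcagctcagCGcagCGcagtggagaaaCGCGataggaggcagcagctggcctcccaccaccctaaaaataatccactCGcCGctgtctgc
Kcnd2 lies at chr4:50742235-50742534 on the plus strand with 23 CG dinucleotides. Kcnj8 lies at chr4:177246499-177246798 on the minus strand with 23, and Abcc9 at chr4:177386299-177386598 on the minus strand with 21. The last 2 windows start 139.8 kb apart, so the genes of the pore and its receptor are neighbours on one chromosome. At least 23 were found in 19.5% of 33469 promoter windows, and at least 21 in 22.6%. Of the 86 members, 57 symbols had a window (62 windows in all). Their median was 14.5 CG dinucleotides against 7 over all windows, 40.3% against 24.2% had 20 or more, and 1.61% against 14.2% held TATAAA on either strand. These are matches of letters in a window and describe no factor's binding.

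Whether the members differed between FT and Sham was asked first over all cells of each dorDG replicate, with edgeR's quasi-likelihood test. The calls followed the study's thresholds, an adjusted p (Benjamini-Hochberg) no higher than 0.2 and a log2 fold change of 0.32 or more in size. Of 33 members tested, 10 were called and all 10 were lower under FT, against 3.44% of all 8394 genes called lower. The median log2 fold change was −0.68 over the members and −0.03 over all genes, and 32 of 33 members had a value below 0, the exception being Kcna6 at 0.11. By family, 5 of 17 voltage-gated alpha subunits, 1 of 6 auxiliary subunits, 3 of 4 calcium- and sodium-activated subunits, 1 of 3 inward rectifiers and 0 of 3 two-pore subunits fell. In sums over all cells, fewer cells of a type and less RNA per cell cannot be told apart.

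Among the voltage-gated subunits, Kcnd2 stood at 7.44, 6.26, 3.45 and 4.32 UMIs per 10000 in FT replicates 1, 2, 4 and 5, and at 13.6, 5.41, 22.9, 10.6 and 11.3 in Sham replicates 1 to 5. Sham replicate 2 lay within the FT range and the other 4 Sham replicates above it. Its log2 fold change was −1.08 ± 0.35 (SE; adjusted p = 0.190, edgeR). Kcnq5, a further M-current subunit, had 0.765, 0.497, 0.487 and 0.428 in FT and 1.32, 0.881, 2.87, 1.22 and 1.30 in Sham. Here the groups did not overlap, and the change was −1.30 ± 0.30 (adjusted p = 0.156, edgeR). Kcnh7 had 1.33, 1.10, 0.706 and 0.565 in FT and 2.60, 0.950, 4.28, 3.55 and 2.13 in Sham, again with Sham replicate 2 inside the FT range (−1.37 ± 0.35, adjusted p = 0.159, edgeR). Kcnc1, a pore subunit of fast-spiking neurons, spanned 0.0504 to 0.237 in FT and 0.225 to 0.612 in Sham (−1.16 ± 0.36). Its FT mean of 0.149 was below the limit of 0.2, which it met through Sham (0.384). Kcnq1, best known from heart and epithelia, spanned 0.201 to 0.350 and 0.259 to 1.55 (−1.21 ± 0.39).

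Among the ion-activated and rectifier members, Kcnt2, a sodium-activated channel, had 0.980, 0.599, 0.353 and 0.360 UMIs per 10000 in FT and 2.47, 0.691, 2.83, 1.48 and 1.44 in Sham (−1.47 ± 0.36, adjusted p = 0.159, edgeR). Kcnma1 had 2.32, 1.80, 1.04 and 0.994 in FT and 3.73, 1.54, 6.28, 3.04 and 3.15 in Sham (−1.03 ± 0.34, adjusted p = 0.192, edgeR). In both, Sham replicate 2 was the low Sham library, within the FT range. Kcnj3, a subunit of G protein-gated inward rectifiers, had 1.15, 0.938, 0.504 and 0.291 in FT and 3.03, 0.708, 4.57, 1.69 and 1.85 in Sham (−1.53 ± 0.43, adjusted p = 0.185, edgeR). Kcnn2.1, the more abundant of a pair of rows for the small-conductance calcium-activated subunit (203 UMIs against 1 for Kcnn2 in dorDG), spanned 0.0672 to 0.260 and 0.244 to 0.877 (−1.29 ± 0.40). Reads of that gene may be split between its rows. Kcnn2.1 had an FT mean of 0.176, below the limit of 0.2, and met that limit through Sham (0.503). The auxiliary Kcnab1 spanned 0.773 to 1.95 and 1.47 to 4.32 (−0.95 ± 0.30).

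Every FT replicate was below every Sham replicate for 2 of the 33 members, Kcnq5 and Kcnip2, against 4.1% of all genes tested. Kcnip2, another calcium-binding partner of A-type channels, was not called (−0.56 ± 0.24, adjusted p = 0.224, edgeR). Among 29 listed partner genes (accessory proteins, pacemaker channels, pumps and chloride transporters), 27 were found, 19 could be tested and 1 fell. That was Ank3, the ankyrin that holds channels at the axon initial segment, at −0.92 ± 0.29 (adjusted p = 0.190, edgeR). The partners' median was −0.42.

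The make-up of the replicates differed along with these calls, and its part in them was not tested beyond the values given here. Low-ribosomal cells made up 23.1, 45.2, 16.0 and 16.2% of the cells in FT replicates 1, 2, 4 and 5, and 56.1, 54.3, 74.0, 37.0 and 45.7% in Sham replicates 1 to 5. Cells of the 3 neuron-labelled types (ExcitNeuron, InhibNeuron and Granule) made up 18.2, 27.4, 10.7 and 10.1% in FT against 27.0, 25.4, 46.0, 28.1 and 31.0% in Sham. The summed member level was 33.3, 32.5, 19.5 and 21.4 UMIs per 10000 in FT and 52.5, 28.2, 84.9, 47.2 and 47.3 in Sham. Sham replicate 3, with the largest shares of low-ribosomal and of neuron-labelled cells, was the highest.

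Restricted to cells of at least 2% ribosomal UMIs, the summed level was 18.8 ± 1.67 UMIs per 10000 in FT (n = 4) and 20.5 ± 5.02 in Sham (n = 5), and 0 of 29 members were called by edgeR (2 at an unadjusted p under 0.05). All 10 called genes had a lower mean under FT in these cells. Kcnh7 was at −0.61 ± 0.27 (an unadjusted p of 0.0375 by edgeR and not called), Kcnq1 at −0.55, Kcnd2 at −0.14 ± 0.25 and Kcnq5 at −0.15 ± 0.30. The 10 were picked in sums over both kinds of cell, so their direction in either kind is not independent of that pick. In the low-ribosomal cells alone, all 10 genes had a lower mean under FT. There 0 of 42 members were called by edgeR (4 at an unadjusted p under 0.05). Kcnq5 was at −1.12 ± 0.29 in those cells (adjusted p = 0.388, edgeR), from 0.785 to 1.38 UMIs per 10000 in FT and from 1.96 to 3.80 in Sham, with no overlap. With the share of low-ribosomal cells as a covariate the count was 0 of 33 and the median −0.32. Among non-neuronal types, here all but ExcitNeuron, InhibNeuron, Granule and also Mossy, the count was 0 of 27 (edgeR). Those of the 10 genes that could be tested there ran from −0.17 ± 0.33 (Kcnq1) to −1.03 ± 0.32 (Kcnj3).

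**Figure D3:**
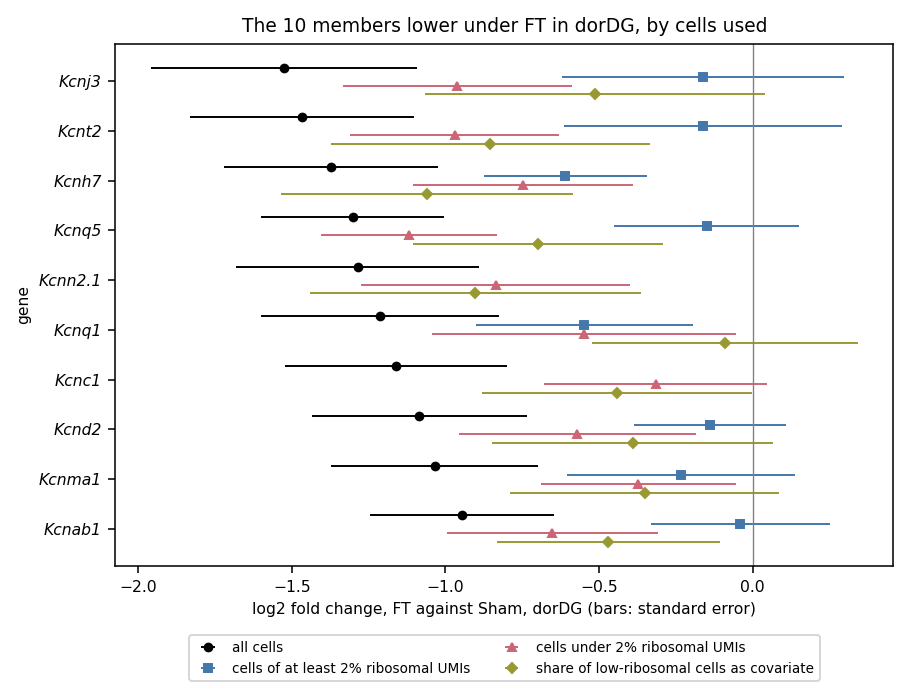
Log2 fold change of FT against Sham in dorDG with its standard error, for the 10 called members, over all cells (circles), over cells of at least 2% ribosomal UMIs (squares), over cells under 2% (triangles) and with the share of low-ribosomal cells as a covariate (diamonds). The circles lie between −1.53 and −0.95, the other marks lie nearer to 0 for each gene, and Kcnc1 and Kcnn2.1 have no square because they were below the limit for a test in those cells.

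Single reactions and paired reactions also differed. Among dorDG replicates of 1 reaction (FT 4 and 5, Sham 3 to 5), the mean summed member level was 20.5 in FT and 59.8 in Sham, with low-ribosomal cells at 16.1% and 52.2%. Among the first reactions of replicates 1 and 2 it was 21.2 in FT and 14.6 in Sham, and 1 of the 10 genes had a lower mean in FT. Among their second reactions it was 82.0 and 77.8, and 5 of the 10 had a lower mean in FT. With the number of reactions as a batch term, 0 of 33 members were called by edgeR, 17 had an unadjusted p under 0.05, and the median stayed at −0.67.

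The count depended on single libraries, for members and for genes at large. Leaving out Sham replicate 2 gave 19 lower members against 14.7% of all genes called lower, and leaving out Sham replicate 4 gave 15 against 11.1%. There were 5 calls without FT replicate 1, against 1.82%, and Kcnq5 was the 1 call without Sham replicate 3. The count was 0 without any one of FT replicates 2, 4 and 5 and Sham replicates 1 and 5, and also 0 at an adjusted p of at most 0.05 by edgeR, where 18 members had an unadjusted p under 0.05. In the 5 fits without those replicates the members' median stayed between −0.82 and −0.55, with 11 to 20 members at an unadjusted p under 0.05. DESeq2 called 12 members, all lower, against 7.59% of genes.

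**Figure D4:**
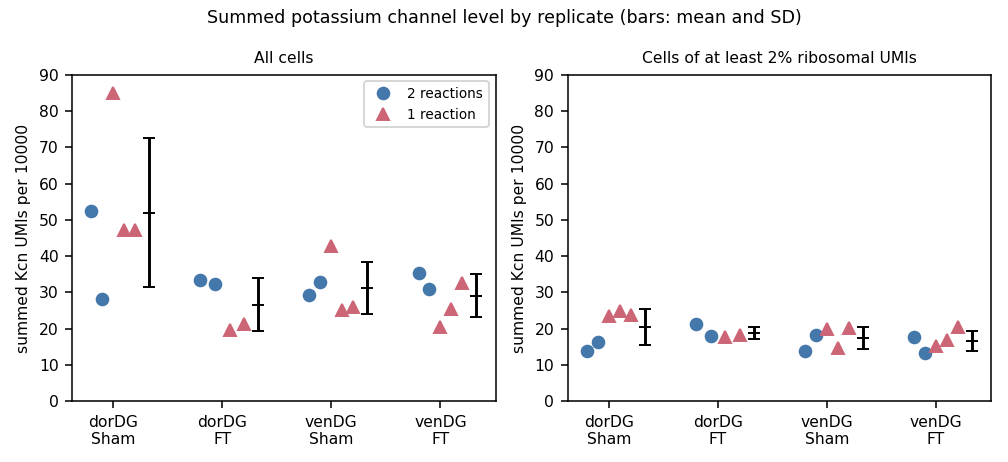
Summed UMIs per 10000 of the 86 members in each replicate, over all cells (left) and over cells of at least 2% ribosomal UMIs (right), with replicates of 2 reactions as circles, replicates of 1 reaction as triangles, and the group mean and SD as bars. Over all cells the dorDG Sham replicates reach 84.9, whereas over the cells on the right all 19 replicates lie between 13.2 and 24.8.

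In venDG, 0 of 33 members were called, as were 0.0% of 8227 genes (edgeR, with 425 genes and 3 members at an unadjusted p under 0.05, and 2 genes and 0 members called by DESeq2). The members' median log2 fold change was −0.04. Kcnd2 stood at 6.74, 5.90, 2.66, 4.79 and 7.02 UMIs per 10000 in FT replicates 1 to 5 and at 5.10, 5.65, 8.49, 4.94 and 4.87 in Sham, so the groups differed by less than their spread (−0.08 ± 0.26). The smallest p belonged to Kcnk10, which spanned 0.163 to 0.558 in FT and 0.107 to 0.191 in Sham, with overlap (1.08 ± 0.34, adjusted p = 0.854, edgeR). Its Sham mean of 0.157 was below the limit of 0.2, which it met through FT (0.325). Kcnh5, a pore subunit of the ether-a-go-go group, was next at −0.68 ± 0.27, followed by Kcnq5 at −0.55 ± 0.24. The summed level was 29.0 ± 5.93 UMIs per 10000 in FT and 31.3 ± 7.12 in Sham (n = 5 each).

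The difference of the FT effect between regions was tested as an interaction term over all 19 replicates. None of 33 members passed, and 0.0% of 8353 genes did (edgeR, 12 members and 693 genes at an unadjusted p under 0.05, and 0 members by DESeq2). The members' median difference was −0.67, dorDG minus venDG. Kcnk10 had the smallest p at −1.96 ± 0.56 (adjusted p = 0.555, edgeR), with −0.86 ± 0.42 in dorDG beside the venDG value above. Its means in dorDG FT (0.193) and venDG Sham (0.157) were below the limit of 0.2. It met that limit through dorDG Sham (0.392) and venDG FT (0.325). Kcnh7 was at −1.32 ± 0.42 and Kcnn2.1 at −1.49 ± 0.50. Without dorDG Sham replicate 2, 10 members were called, all more negative in dorDG, against 1.93% of genes. Members and other genes were also called with the replicate number as a block, a pairing that no label gives. Their counts stand in the section on how the results depend on the processing.

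Between the regions themselves, with treatment as a term, 0 of 33 members and 0.18% of 8353 genes were called (edgeR, 7 members at an unadjusted p under 0.05). The median was 0.21, dorDG over venDG, and 28 of 33 values were above 0. Kcnj6, which pairs with Kcnj3 in G protein-gated channels, had the smallest p at 1.27 ± 0.33 (adjusted p = 0.263, edgeR). It stood at 0.309, 0.813, 0.151 and 0.206 UMIs per 10000 in dorDG FT, 0.678, 0.449, 1.20, 0.526 and 0.666 in dorDG Sham, and between 0.0591 and 0.362 in the 10 venDG replicates. All 5 dorDG Sham replicates were above every venDG replicate, whereas 3 of 4 dorDG FT replicates lay within the venDG range. It was called without dorDG FT replicate 4, dorDG FT replicate 5 or venDG FT replicate 2, by DESeq2, with no limit on low values, and in low-ribosomal cells. Kcnip1 followed at −0.60 ± 0.23 (0.168 to 0.597 in dorDG, 0.245 to 1.04 in venDG), and Kcnt2 at 0.61 ± 0.26.

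Reactions of the same replicate were compared as well. In the 8 replicates with 2 reactions (numbers 1 and 2 of each group), the second against the first, by the order of their names, was tested with the replicate as a term. Of 36 members tested, 32 were higher in the second reaction, against 39.9% of 8581 genes, and 1 was lower, against 37.4%. The median was 1.41 over the members and 0.09 over all genes. The summed level ran from 13.6 to 23.0 UMIs per 10000 in first reactions and from 48.9 to 97.2 in second ones, 2.94 to 7.14 times higher within a replicate. Low-ribosomal cells made up 5.10 to 19.8% of first and 78.3 to 97.5% of second reactions. What the reactions held (cells or nuclei) is not stated, so that difference and the reaction cannot be told apart.

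Of the 12 genes with the smallest p, Kcnc2, a fast delayed rectifier, was furthest apart, with 0.148 ± 0.079 UMIs per 10000 in first and 1.41 ± 0.92 in second reactions (n = 8; 2.67 ± 0.26, adjusted p = 7.18e-08, edgeR). Kcnd2 had 2.96 ± 0.73 and 16.8 ± 6.02 (1.92 ± 0.22). Both were higher in the second reaction in 8 of 8 replicates. Kcnc2, Kcnn2.1, Kcnc1 and Kcnk9 had means below the limit of 0.2 in first reactions and met it through second reactions. Of the other 10, those given here are Kcnj3 (2.41), Kcnn2.1 (2.35), Kcnma1 (2.07), Kcnh7 (1.89), Kcnq3 (1.81), Kcnab1 (1.78), Kcnh1 of the ether-a-go-go group (1.75), Kcnq5 (1.70) and Kcnab2 (1.37), each a log2 fold change with a standard error between 0.20 and 0.33. Of the members that fell under FT in dorDG, Kcnt2 (2.03), Kcnc1 (1.47) and Kcnq1 (1.14) were also called higher in this comparison. The lower one was Kcna6, the oligodendrocyte-leaning subunit, at −0.75 ± 0.26 (adjusted p = 0.0172, edgeR). On the log2 scale of UMIs per 10000 without TMM scaling its value was −0.30 and it was not called, and it was higher in the second reaction in 3 of 8 replicates. Kcnk9, testable in this comparison, was at 1.11 ± 0.39.

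**Figure D5:**
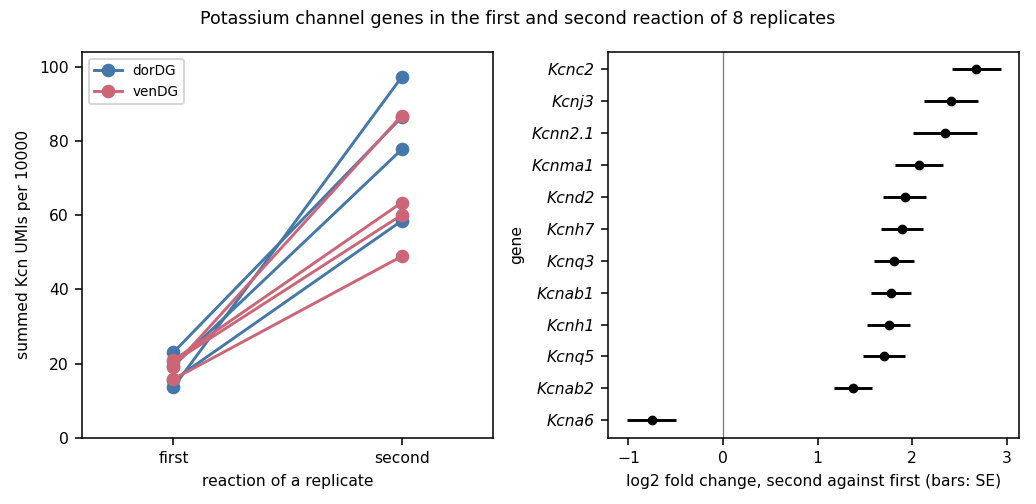
Left, summed UMIs per 10000 of the 86 members in the first and second reaction of each of 8 replicates, joined by lines. Right, log2 fold change of the second against the first reaction with its standard error for 11 of the 12 higher members with the smallest p and for Kcna6. All 8 lines rise, and Kcna6 alone lies below 0.

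Within dorDG cell types, FT was compared with Sham on sums over the cells of a type, for 9 types with at least 3 replicates of at least 5 cells in each group. Members were called in Oligodend1 alone, where 3 of 25 were lower, against 0.523% of 7270 genes; whether the effect differs between types was not tested. Kcnh7 had 2, 3, 1 and 2 UMIs in FT replicates 1, 2, 4 and 5 (0.136 to 0.399 per 10000) and 13, 9, 5, 12 and 9 in Sham replicates 1 to 5 (0.854 to 2.90). The groups did not overlap, and the log2 fold change was −2.17 ± 0.54 (adjusted p = 0.0681, edgeR). Kcnma1 had 4, 6, 2 and 0 UMIs in FT and 16, 13, 4, 4 and 15 in Sham, also without overlap in UMIs per 10000 (at most 0.798 against at least 0.965; −1.64 ± 0.50, adjusted p = 0.184, edgeR). Kcnd3, an A-type pore subunit, had 0 UMIs in all 4 FT replicates and 7, 4, 0, 4 and 2 in Sham (adjusted p = 0.110, edgeR). Pooled over replicates that is 0 of 288933 UMIs in FT against 17 of 356834 in Sham. The pooled Sham level was 4.59 times a floor of 3 counts in FT, a figure that leaves out the spread between replicates. Kcnd3 met the limit for a test through Sham alone. The oligodendrocyte-leading genes Kcna6 and Kcnq3 had values of 0.28 ± 0.35 and 0.15 ± 0.33.

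Low-ribosomal cells made up 10.0, 52.0, 13.3 and 14.3% of Oligodend1 cells in FT and 71.8, 73.9, 72.7, 60.0 and 41.7% in Sham. Pooled over replicates, Kcnh7 had 0.192 UMIs per 10000 in FT and 0.631 in Sham among cells of at least 2% ribosomal UMIs, and 1.06 and 3.10 among the others. Neither kind of cell gave a call by edgeR, and the part of that mix in the result was not tested beyond this. DESeq2 called Kcnd2 alone, and limma called 0. The count was 0 without FT replicate 4 or FT replicate 5, and 1 without FT replicate 1 or Sham replicate 2. Calls over all genes moved as well. With all replicates, 38 of 7270 genes were called lower. Without FT replicate 4 it was 1 of 7388, and without FT replicate 5 it was 0 of 7330. Without FT replicate 1 it was 8 of 7341, and without Sham replicate 2 it was 12 of 7111 (edgeR). Among partners in Oligodend1, Dpp6, an accessory subunit of A-type channels, fell by 2.09 on the log2 scale, 1 of 17 tested.

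In the other 8 types edgeR called 0 members, against 0.0244% of genes in AstroSub1, 0.0% in Endothelial, 0.153% in Granule, 0.0% in Microglia1, 0.0288% in Microglia2, 0.0% in Mossy, 0.0145% in Oligodend2 and 0.0593% in OPC. Members at an unadjusted p under 0.05 (edgeR) numbered 7 of 36 in Granule, 2 of 21 in Mossy, 2 of 22 in Oligodend2 and 2 of 34 in OPC. There was 1 of 32 in AstroSub1, 1 of 20 in Microglia1, and 0 in Endothelial and Microglia2. Over all genes there were 601 of 7842 in Granule, 285 of 7475 in Mossy, 214 of 6880 in Oligodend2 and 373 of 8435 in OPC. The same count was 413 of 8191 in AstroSub1, 165 of 5871 in Microglia1, 405 of 7479 in Endothelial and 342 of 6936 in Microglia2. DESeq2 called 0 in these types. In Granule the smallest p-values belonged to Kcnab1 (−1.57 ± 0.58), Kcnj6 (−2.42 ± 0.94) and Kcnq5 (−1.53 ± 0.60), each with adjusted p = 0.491 (edgeR). In Mossy they were Kcnt2 (−2.71 ± 0.89), Kcnma1 (−1.59 ± 0.62) and Kcnh7 (−1.30 ± 0.73).

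In glia the same ranking gave Kcnip4 (2.47 ± 1.20), Kcnab1 (−1.27 ± 0.65) and Kcnma1 (−0.90 ± 0.46) in AstroSub1, and Kcnc2 (−2.14 ± 0.79), Kcnh1 (−2.21 ± 0.89) and Kcnab1 (−0.84 ± 0.51) in OPC. Oligodend2 had Kcnh5 (−1.25 ± 0.56), Kcnip4 (−1.52 ± 0.69) and Kcnu1 (−1.39 ± 0.88). Endothelial cells had Kcnab1 (−0.98 ± 0.52) and Kcnt2 (−1.82 ± 0.97) with the smallest p-values. Microglia1 had Kcnd2 (−0.97 ± 0.43), Kcnj6 (1.41 ± 0.80) and Kcnh7 (−1.14 ± 0.68), and Microglia2 had Kcnh7 (2.21 ± 1.20), Kcns3 (−2.11 ± 1.26) and Kcnh5 (−1.09 ± 0.77). None of these values passed.

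ExcitNeuron, InhibNeuron and BergGlia had too few replicates of 5 cells. With replicates of at least 1 cell, edgeR called 0 of 39, 0 of 43 and 0 of 26 members, with 3, 11 and 2 at an unadjusted p under 0.05. Over all genes, 306 of 7902, 1224 of 8490 and 302 of 6672 had such a p in ExcitNeuron, InhibNeuron and BergGlia. DESeq2 on the same sums, chosen after seeing the data, called 9 lower in ExcitNeuron against 3.28% of genes, 6 lower in InhibNeuron against 1.4%, and 0 in BergGlia. Kcnq5 in InhibNeuron was at −1.35 ± 0.38 (adjusted p = 0.203, edgeR) and −1.30 ± 0.40 (adjusted p = 0.0904, DESeq2). FT supplied 27 of 147 InhibNeuron cells and 31 of 55 ExcitNeuron cells.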

How the data were processed

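RNA was profiled by droplet 3′ sequencing (10x Genomics) from dorsal and ventral dentate gyrus punches. Per the labels, the authors aligned reads with Cell Ranger 2.1.0, and the submitters' processing notes name the genome build rn5 and Seurat 3. The values deposited are unnormalised UMI counts for each gene in each cell, kept after the authors' filters on genes, UMIs and mitochondrial share, and other per-cell information, of which the cell type names and the total count were read. A log-normalised version of the venDG counts was set aside. Because the counting build differs from GRCr8, only symbols and promoter windows were taken from RefSeq. Of 86 symbols, 85 matched.

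The 108 libraries form 27 reactions of 4 libraries each and 19 replicates. All reactions of a replicate were summed, following the replicate numbers of the labels, from which the authors' cell annotation differs. From venDG, 170 cells with a second suffix on their reaction name were left out, 167 of which repeat a listed barcode and reaction. No further cells were removed, and no doublet caller was run. Within groups, even the closest pair of replicates differed by more than counting error, at a chi-square of 2.97 per degree of freedom.

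Counts were tested with edgeR 4.0.16 (quasi-likelihood, TMM) in R 4.3.3 over all genes that reached 0.2 UMIs per 10000 on average, and p-values were adjusted over all of them by the Benjamini-Hochberg method. Within types, sums needed at least 5 cells, and at least 3 replicates per group. Tables were made with Python 3.11.15, numpy 2.4.6, pandas 2.3.3 and scipy 1.17.1, and plots with matplotlib 3.10.9. In counts simulated for the dorDG comparison over 8394 genes, 96% of genes changed 4-fold and 60% of those changed 2-fold were recovered, and 21.6% of calls were false. Alternatives were DESeq2 1.42.0, limma 3.58.1 on log2 of UMIs per 10000 with a pseudocount of 0.01, a limit of 0.5 or none, an adjusted p of 0.05, the replicate number as a term, cells of at least 2% ribosomal UMIs, non-neuronal types and each replicate left out. Low-ribosomal cells alone, their share as a covariate, the number of reactions as a batch term and DESeq2 on sums of at least 1 cell were chosen after seeing the data.

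Named genes are the 3 highest members of each type, every called member (the 12 with the smallest p where more are called in one direction), the 3 smallest p-values where none is called, Kcnj10, Kcna2 and Kcnk9, which the study names, Kcnh7, Kcnj8, and the members nearest to the limit. Kcna1, Kcng4, Kcne4 and Kcnip2 and the values of Kcna6 outside this rule were chosen after their values were seen. Some genes that this rule names are not reported here. The members and lists were chosen with earlier results of these data known.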

Additional observations from a re-analysis of the deposited data

Results flagged for a closer look

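In 5 of 72 groups of replicate values, 1 replicate lay far from the rest. Chance flags about 1 in 20 groups, which is 3.6 of 72. In dorDG Sham, replicate 3 was the high one for Kcnq5 (2.87 UMIs per 10000, nearest other 1.32) and for Kcnh5 (2.59, nearest 1.30). It was also the replicate with the largest share of low-ribosomal cells in that group. In venDG Sham, replicate 3 was the high one for Kcnd2 (8.49, nearest 5.65) and for Kcnh7 (2.32, nearest 1.59). In dorDG FT, replicate 1 was the low one for Kcnj8 (0.134, nearest 0.269).

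The 170 venDG cells with a second suffix, all of 1 reaction and used in no comparison, held 1841 UMIs of the members, a summed level of 62.6 UMIs per 10000. A count of 0 would allow up to 0.102.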

How the results depend on the processing

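Beside the 10 dorDG calls, DESeq2 gave 12 (against 7.59% of genes called lower), a limit of 0.5 gave 11 and limma gave 8, all lower. For the limit of 0.5, limma and no limit, the share of all genes called is not given here. There were 0 at an adjusted p of 0.05, in cells of at least 2% or under 2% ribosomal UMIs, with the share of low-ribosomal cells or the number of reactions as a term, and in non-neuronal types (edgeR), and 6 with no limit on low values. Leaving out 1 replicate gave 0 to 19 (the libraries are named in the report), 0 to 0 in venDG, 0 to 10 for the difference between regions (10 without dorDG Sham replicate 2), 0 to 1 between regions, 32 to 34 between reactions and 0 to 3 within types. Between regions 1 member (Kcnj6) was called by DESeq2, with no limit, in low-ribosomal cells, and without dorDG FT replicate 4, dorDG FT replicate 5 or venDG FT replicate 2. Between reactions 20 were called at a limit of 0.5, where fewer genes are tested. Within types the 3 calls became 0 at an adjusted p of 0.05, by limma and in either kind of Oligodend1 cell, and 1 by DESeq2. DESeq2 on sums of at least 1 cell gave 15 in the 3 types otherwise left out. Of all genes, it called 3.28% lower in ExcitNeuron and 1.4% lower in InhibNeuron. Summed levels in cells of at least 2% ribosomal UMIs were 18.8 (dorDG FT), 20.5 (dorDG Sham), 16.7 (venDG FT) and 17.4 (venDG Sham) UMIs per 10000. Where not stated, the cause was not tested. For named genes, 798 values kept their direction and side of the threshold, 11 gained a call and 166 lost it, and no called direction was reversed.

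Replicates of the same number were not taken as pairs, which no label makes them and which would have needed every correlation to be over 0.1. Deviations from group means correlated at −0.113 to 0.26 between dorDG FT and Sham (1 of 4 pairs over 0.1, 1 of 4 best with its own number) and at −0.046 to 0.225 in venDG (3 of 5, 4 of 5). Between regions they correlated at 0.061 to 0.26 in FT (3 of 4, 2 of 4) and 0.146 to 0.452 in Sham (5 of 5, 3 of 5). With the number as a replicate block, the calls were 0 in dorDG, 0 in venDG, 7 for the difference between regions (with 202 of 8384 genes), 0 between regions and 3 within types. Without the block between reactions they were 33. Few cells (72 in Mossy) and few UMIs per gene and replicate (at most 16 for the members called in Oligodend1) limit the precision.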

Other observations

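Among partner genes that are no members, Pex5l, a trafficking protein of the peroxin family, stood at 10.9 UMIs per 10000 in Oligodend1 and 7.49 in Oligodend2 over all cells of the type. Abcc8, the sulphonylurea receptor of neurons and beta cells, had 0.482 in ExcitNeuron. These levels are descriptions of clustered types, with no test.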
